A study of Homo sapiens with 79 samples.

Results

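The melanin pigment genes described here are MITF, PMEL, MLANA, TYR, TYRP1, DCT, SLC45A2, OCA2 and GPR143. They were chosen by name, and all 9 were found among the 24414 human genes of the count table. The cells came from retinal organoids of the H9 human embryonic stem cell line that carries a GFP reporter at CRX, a photoreceptor gene. All organoids were grown with fetal calf serum, T3, taurine and retinoic acid from an early stage of differentiation, and they were dissociated at 60, 90 or 200 days. Single cells were captured on Fluidigm C1 chips and copied to cDNA with SMART-Seq v4. The 79 samples are columns of 4 chips, with 19 columns and 578 cells at day 60, 20 columns and 661 cells at day 90, 20 columns and 356 cells on day 200 chip a, and 20 columns and 381 cells on day 200 chip b. These are organoids of 1 line, the columns of a chip share 1 cell suspension, and days 60 and 90 had 1 chip each. No test between days was therefore made, and day and chip cannot be told apart. The 2 chips of day 200 are the only repeat.

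Melanin is made and stored in melanosomes, organelles of the lysosome family, in the retinal pigment epithelium (RPE), in the pigmented layers of the ciliary body and iris, and in melanocytes of the neural crest. MITF is the transcription factor that switches on most melanosome genes. PMEL forms the fibrils on which pigment is laid down, and MLANA is a membrane protein that takes part in PMEL maturation. TYR carries out the rate-limiting step from tyrosine, DCT (dopachrome tautomerase) and TYRP1 act on later intermediates, SLC45A2 and OCA2 set the conditions inside the organelle for TYR, and GPR143 is a melanosomal receptor that controls the size and number of the organelles. RPE cells develop their pigment early and also serve photoreceptors through the visual cycle and phagocytosis.

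MITF binds E-box elements, and a longer form of the element, the M-box, is known from promoters of pigment enzymes. Promoter windows of 300 bases, from 250 before to 50 after an annotated start, were available for 7 of the 9 genes (RefSeq, GRCh38.p14; 10 windows, since DCT and MITF have more than 1 start) and not for PMEL or SLC45A2. The 7-base core TCATGTG was searched on both strands, so CACATGA counts as well. It contains the shorter E-box CATGTG, which reads CACATG on the other strand. TCATGTG was found in TYRP1, TYR, DCT and GPR143, thus in 4 of the genes, against 2.92% of all 35116 windows and 3.59% of all 27305 genes. CATGTG was found in those genes and in OCA2, against 11.1% of all windows, and the palindrome CACGTG was found in none of the 7 genes with a window, against 7.26% of windows. The windows with the longer core are printed 5′ to 3′ on the strand of the gene, since the levels of these genes are followed below, with each TCATGTG or CATGTG, read on either strand, in capitals. They lie at chr9:12693135-12693434 on the plus strand for TYRP1, chr11:89177625-89177924 on the plus strand for TYR, chr13:94479633-94479932 on the minus strand for DCT and chrX:9765798-9766097 on the minus strand for GPR143.
TYRP1: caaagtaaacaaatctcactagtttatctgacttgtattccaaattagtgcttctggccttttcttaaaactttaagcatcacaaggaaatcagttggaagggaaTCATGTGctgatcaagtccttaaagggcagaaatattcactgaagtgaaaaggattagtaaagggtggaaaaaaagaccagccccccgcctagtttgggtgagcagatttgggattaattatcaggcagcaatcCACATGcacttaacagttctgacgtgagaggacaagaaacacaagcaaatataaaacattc
TYR: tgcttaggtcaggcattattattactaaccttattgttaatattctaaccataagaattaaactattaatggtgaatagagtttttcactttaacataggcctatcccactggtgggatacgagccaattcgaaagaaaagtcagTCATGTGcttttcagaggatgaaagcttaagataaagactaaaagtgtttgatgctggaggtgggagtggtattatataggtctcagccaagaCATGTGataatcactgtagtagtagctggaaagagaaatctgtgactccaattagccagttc
DCT: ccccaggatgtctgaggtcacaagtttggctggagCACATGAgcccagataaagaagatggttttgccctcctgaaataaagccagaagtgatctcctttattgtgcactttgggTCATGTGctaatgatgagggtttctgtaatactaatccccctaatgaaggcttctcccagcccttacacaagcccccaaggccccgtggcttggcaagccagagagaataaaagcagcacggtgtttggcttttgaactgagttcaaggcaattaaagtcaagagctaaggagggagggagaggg
GPR143: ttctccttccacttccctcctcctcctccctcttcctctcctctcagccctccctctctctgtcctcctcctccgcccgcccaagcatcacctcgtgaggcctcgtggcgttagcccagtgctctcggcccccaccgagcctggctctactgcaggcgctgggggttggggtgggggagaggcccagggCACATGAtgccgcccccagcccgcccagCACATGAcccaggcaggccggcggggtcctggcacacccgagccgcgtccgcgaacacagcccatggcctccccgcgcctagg
In TYRP1 and TYR the longer core began 145 and 105 bases before the start on the gene's own strand. DCT held it in both orientations, 215 and 135 bases before the start, and GPR143 held 2 copies, both on the other strand, 61 and 33 bases before the start. A match of letters is a description and not a binding site.

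Levels are given in CPM, the reads of a gene scaled to the total of endogenous reads, from reads summed over the cells of a chip, a column or a class. The 4 chips held between 89204989 and 115731787 reads, and the median cell held between 160343 reads at day 90 and 251929 reads on day 200 chip a. Shares of cells with a read are given after each cell was thinned to 50000 reads, which left out 6 shallow cells of day 90. Intervals are exact 95% Poisson or Clopper-Pearson intervals. They cover counting error only, since reads here carry no molecular identifiers.

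Pigment gene RNA was highest at day 90. The 9 genes together took 187.3 CPM at day 60, 1588.6 CPM at day 90, 389.4 CPM on day 200 chip a and 286.4 CPM on chip b. Columns spread widely inside a chip. The lowest, median and highest column stood at 31.5, 142 and 487 CPM at day 60, at 401, 1357 and 3675 CPM at day 90, at 7.24, 231 and 1397 CPM for chip a and at 23.6, 175 and 1041 CPM for chip b. The highest column of day 60 thus lay above the lowest of day 90, while the median of day 90 lay above every column of day 60. Fewer pigmented cells and less pigment RNA per cell cannot be told apart in these sums, and the levels by cell class are given further on.

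MITF, the regulator (chromosome 3, 69739456 to 69968336, plus strand, positions here and below from GENCODE 44 on GRCh38), was read at 21.7 CPM at day 60 (95% interval 20.8 to 22.6), 108.6 at day 90 (106.7 to 110.5), 39.3 on chip a (38.1 to 40.6) and 28.6 on chip b (27.5 to 29.7). Its columns ran from 0 through a median of 14.5 to 91.8 CPM at day 60, from 20.4 through 89.2 to 223.4 at day 90, from 0 through 27.8 to 154.8 for chip a and from 0 through 23.2 to 81.3 for chip b. The day 90 columns were the highest as a group, and they overlapped those of each other chip. A read of MITF was present in 9.17% of cells at day 60, 25.6% at day 90, 8.43% for chip a and 12.9% for chip b.

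PMEL, the fibril protein (chromosome 12, 55954105 to 55973317, minus strand), stood at 53.8 CPM at day 60 (52.4 to 55.2), 481.6 at day 90 (477.6 to 485.6), 104.7 on chip a (102.7 to 106.8) and 58.7 on chip b (57.2 to 60.4). Column medians were 33.2, 484.0, 51.3 and 35.3 CPM, and the ranges were 0 to 203.5, 51.8 to 1002.5, 0 to 487.0 and 0.205 to 250.2 CPM in the same order. Day 90 had the highest median column, and columns of each other chip reached into its range. PMEL was read in 14.5%, 34.2%, 11.5% and 13.4% of cells. Its exons share 89 bases with CDK2 on the opposite strand, and no strand setting of the counting is named in the sources used here. CDK2 itself stood between 6.64 and 12.8 CPM on the 4 chips.

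MLANA (chromosome 9, 5890889 to 5910606, plus strand), which is abundant in melanocytes, was close to absent. It had no read at day 60 or on chip a, 0.994 CPM at day 90 (0.820 to 1.19) and 4.50 CPM on chip b (4.07 to 4.96). The limit given for a count of 0 is 3 cells of the total, here and below. At day 60 the 0 of 578 cells allows a share of up to 0.519%, and on chip a the 0 of 356 cells allows up to 0.843%. Reads came from 17 cells in all, 10 at day 90 and 7 on chip b, and 1 day 90 cell held 56.5% of that chip's 115 reads. Chip b was the only chip on which MLANA passed 1 CPM, and its 3 best cells with 130, 120 and 67 reads were RPE-like, cone-like and Müller glia-like, classes that are defined below.

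TYR, the rate-limiting enzyme (chromosome 11, 89177875 to 89295759, plus strand), stood at 4.27 CPM at day 60 (3.88 to 4.68), 43.7 at day 90 (42.5 to 44.9), 7.73 on chip a (7.19 to 8.30) and 9.42 on chip b (8.79 to 10.1). The median column was at 0 on all chips but day 90, where it was at 44.6 CPM within a range of 0.863 to 104.6. The highest columns elsewhere were 31.2, 54.8 and 48.2 CPM. TYR was read in 1.56%, 14.7%, 2.81% and 3.41% of cells, so outside day 90 its level rested on a few cells in a minority of columns.

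TYRP1 (chromosome 9, 12685439 to 12710285, plus strand) had the widest range between days on the log2(CPM + 1) scale used below. It stood at 5.41 CPM at day 60 (4.98 to 5.88), 159.6 at day 90 (157.3 to 161.9), 64.3 on chip a (62.7 to 65.9) and 54.5 on chip b (52.99 to 56.1). Columns ran from 0 to 25.4 CPM with a median of 1.23 at day 60, from 0.288 to 301.7 with a median of 163.2 at day 90, from 0 to 214.4 with a median of 15.5 for chip a and from 0 to 218.0 with a median of 19.2 for chip b. At day 200 most columns were low and a few on each chip reached the day 90 levels. Shares of cells with a read were 2.94%, 25.5%, 12.6% and 12.6%. The exons of TYRP1 share 102 bases with LURAP1L-AS1 on the opposite strand, which had no read in the RPE-like cells where TYRP1 was highest.

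DCT (chromosome 13, 94436811 to 94479682, minus strand) took the most reads of the 9 genes on each chip. It stood at 85.9 CPM at day 60 (84.1 to 87.7), 740.8 at day 90 (735.9 to 745.8), 140.5 on chip a (138.2 to 142.9) and 114.0 on chip b (111.8 to 116.3). The lowest, median and highest column were 3.75, 58.1 and 235.2 CPM at day 60, 181.9, 583.3 and 2187 at day 90, 0, 41.4 and 799.2 for chip a and 0, 52.5 and 499.1 for chip b. It was also the most widely detected, in 18.2%, 50.4%, 16.3% and 27.8% of cells. DCT is the longest of these genes in exon bases (7540), so per kilobase PMEL was higher at day 90, at 131.2 CPM per kb against 98.3 for DCT.

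The ion transporters were scarce. SLC45A2 (chromosome 5, 33944623 to 33984693, minus strand) had 150 reads in 8 cells of day 90, or 1.30 CPM (1.10 to 1.52), and none on the other chips, which allows shares of up to 0.519%, 0.843% and 0.787% of cells. OCA2 (chromosome 15, 27754875 to 28099315, minus strand) stood at 0.572 CPM at day 60 (0.436 to 0.736), 9.60 at day 90 (9.04 to 10.2), 0 for chip a and 2.03 for chip b (1.74 to 2.35), with reads in 0.692%, 3.66%, 0% and 2.36% of cells. GPR143, the melanosomal receptor (chromosome X, 9725346 to 9786297, minus strand), differed between the chips of day 200 as well. It stood at 15.7 CPM at day 60 (15.0 to 16.5), 42.4 at day 90 (41.2 to 43.6), 32.8 on chip a (31.7 to 34.0) and 14.6 on chip b (13.8 to 15.4). Its columns overlapped between all chips, with medians of 12.2, 37.9, 18.6 and 4.90 CPM and highest columns of 57.3, 91.0, 138.1 and 64.99 CPM.

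**Figure D1:**
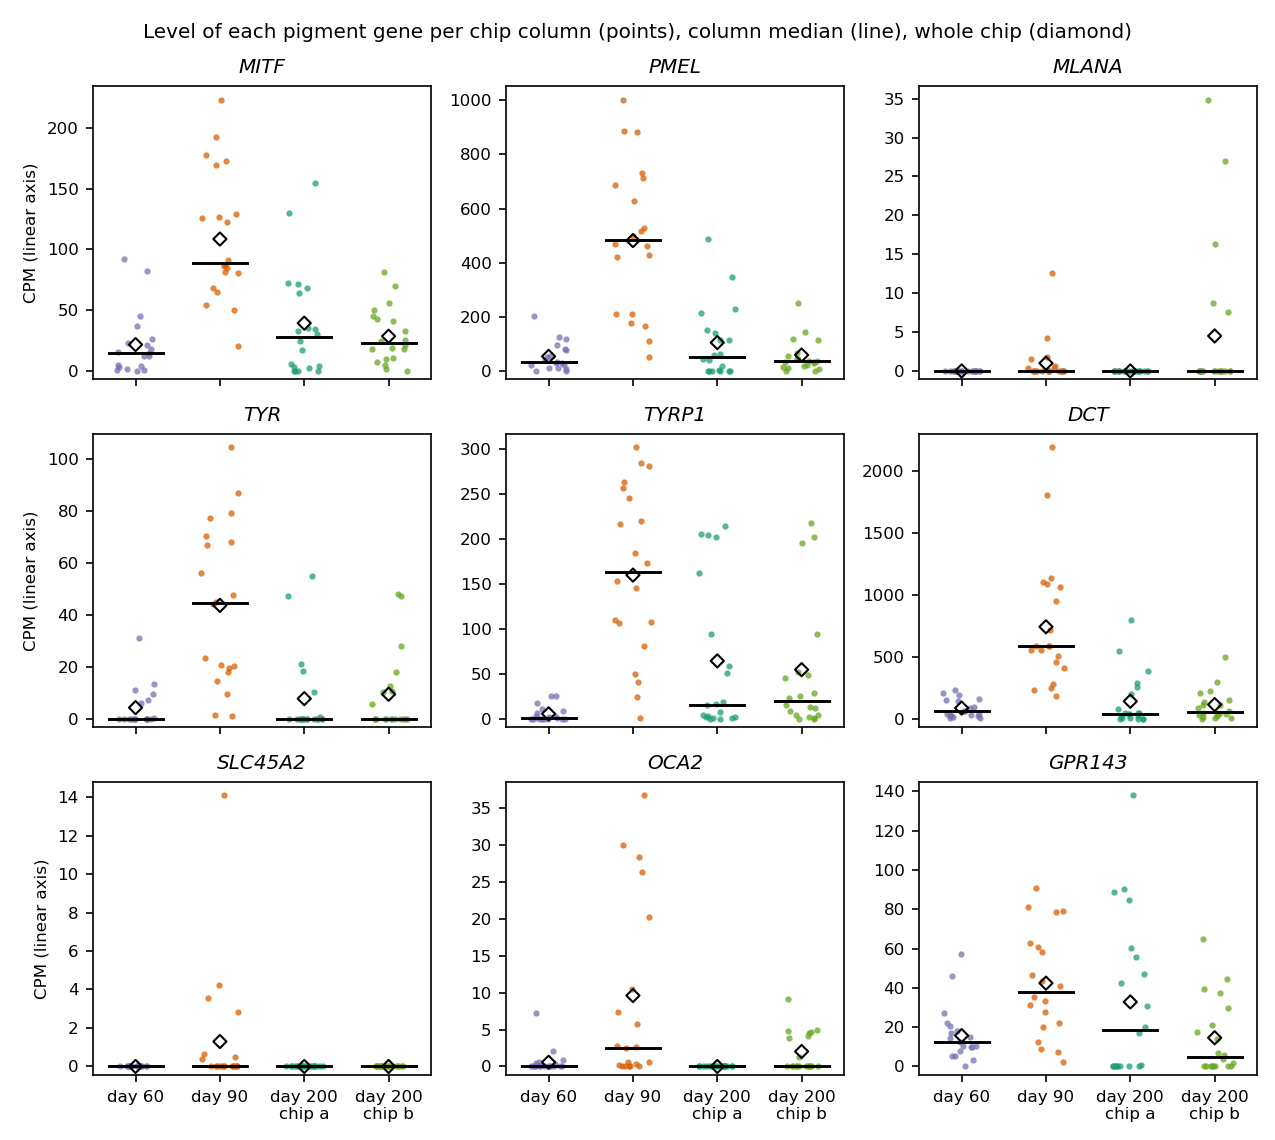
CPM of each gene (linear axis from 0, own scale in each panel) in each chip column, by chip, with a line at the median column and a diamond for all cells of the chip. In 7 of the 9 panels the median column of day 90 lies above those of the other chips, and for MLANA and SLC45A2 all column medians are 0.

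For the steps between days, log2(CPM + 1) of the summed chips was subtracted for genes with at least 5 CPM on 1 of the chips compared, which MLANA and SLC45A2 did not reach. From day 60 to day 90, 7 of 7 genes were at least 2-fold higher, as were 11.5% of all 13031 genes compared. TYR and OCA2 passed the filter only through day 90. For OCA2 (0.572 CPM at day 60) passing already implied a 2-fold rise. The differences were 4.65 log2 units for TYRP1, 3.14 for PMEL, 3.09 for DCT, 3.08 for TYR, 2.75 for OCA2, 2.27 for MITF and 1.38 for GPR143, with a median of 3.08 against 0.011 over all genes. From day 90 to day 200 (both chips summed), 6 of 7 were at least 2-fold lower, as were 4.82% of 13018 genes. OCA2 again passed only through day 90, which implied its 2-fold fall. PMEL and DCT fell by 2.53 log2 units each, OCA2 by 2.42, TYR by 2.23, MITF by 1.64 and TYRP1 by 1.41, while GPR143 differed by -0.79. Against day 90 alone, GPR143 differed by -0.36 on chip a and by -1.47 on chip b, and between the chips of day 200 it was lower on chip b by -1.12. From day 60 to day 200, 1 of the 6 genes that passed was at least 2-fold higher, beside 12.6% of 13146 genes. It was TYRP1, 9.45-fold higher with both chips, 10.2-fold for chip a and 8.66-fold for chip b. The others lay between 1.48-fold (DCT) and 1.81-fold (TYR). These comparisons share the day 60 and day 90 chips, and each is a difference between chips with no replicate check at days 60 and 90.

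At day 90 many single cells held several of the genes together, and at the other times few did. After thinning, 16 of 578 cells had reads of 3 or more of the 9 genes at day 60 (2.77%, 1.59 to 4.46), 164 of 655 at day 90 (25.0%, 21.8 to 28.5), 15 of 356 on chip a (4.21%, 2.38 to 6.85) and 23 of 381 on chip b (6.04%, 3.86 to 8.92). This is a range of a per-cell count and not a cell type. Just below the mark of 3, 37, 89, 25 and 46 cells had reads of 2 genes, and just inside it 9, 47, 7 and 13 cells had 3. The highest count was 8, in 1 cell of day 90. At day 90 the cells with 3 or more genes held 91.4% of all pigment reads, and at day 60 they held 40.9%.

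**Figure D2:**
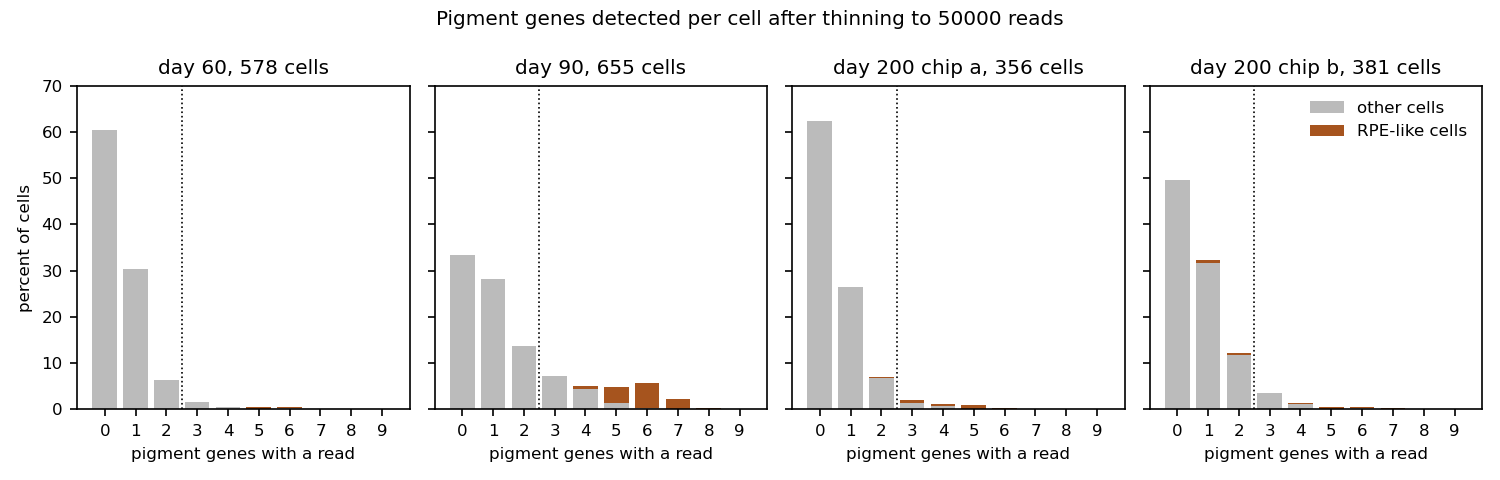
Percent of cells (vertical axis) by the number of pigment genes with a read after thinning to 50000 reads (horizontal axis), 1 panel per chip, with RPE-like cells in brown and the dotted line at the mark of 3 genes. At day 90 the cells with 5 to 7 genes are mostly brown, and the other chips have few cells beyond 3. The RPE-like class is described after this plot.

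To place the reads in cell classes, the cells were clustered without the 9 genes, so that none of them chose a class, and clusters were named from the marker lists of the study from which the 9 genes were removed. The study chose those lists on these cells, so a name is not independent evidence. The 7 RPE markers left (COL8A1, BEST1, ENPP2, SERPINF1, TIMP3, RNASE1 and SFRP1) all passed the marker rule in 1 cluster of 99 cells, called RPE-like here. It held 4 cells at day 60 (0.692%, 0.189 to 1.76), 78 at day 90 (11.8%, 9.44 to 14.5), 9 on chip a (2.53%, 1.16 to 4.74) and 8 on chip b (2.10%, 0.911 to 4.10). Of the 9 on chip a, 3 were called doublets, and none of the others. Of the rod-like cells of day 60, all 65 came from a cluster led by VSX1, KLHL35 and LHX4, while 24, 26 and 11 of the rod-like cells of day 90 and chips a and b came from another cluster led by CCKBR and GNAT1. The VSX1 cluster also held 64 of the 88 rod-like cells of day 90. It passed the marker rule for 5 rod and 4 retinal ganglion cell (RGC) markers, so the name rod-like is weak for it. A cluster of 326 cells led by GDF15 and metallothionein genes matched no list and stayed unnamed.

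Pigment RNA was concentrated in the RPE-like cells. The 9 genes together took 9372 CPM, or 0.937% of all reads, in the RPE-like cells of day 90, 6672 CPM in those of day 60, 8078 for chip a and 7945 for chip b. In all other cells of the same chips they took 261.2, 146.4, 197.8 and 153.0 CPM. The RPE-like cells held 86.0% of the pigment reads of day 90 but 22.3% at day 60, 50.4% for chip a and 47.5% for chip b. Of the 1401.3 CPM by which day 90 exceeded day 60, RPE-like cells held 94.5%. The number of RPE-like cells went from 4 to 78 between these chips, while the summed level within them went from 6672 to 9372 CPM.

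Within day 90, all 9 genes passed the filter and 9 of 9 were at least 2-fold higher in RPE-like than in other cells, as were 13.3% of 13145 genes. The classes come from the cells themselves, so this is a description. TYR, OCA2, MLANA and SLC45A2 passed the filter only through the RPE-like cells, where they were high. For MLANA and SLC45A2 passing already implied a 2-fold difference. PMEL stood at 3131 against 29.8 CPM (102-fold on the CPM + 1 scale), TYR at 287.3 against 2.12 (92.3-fold) and TYRP1 at 1030 against 11.2 (84.4-fold). MITF stood at 606.6 against 23.7 CPM (24.6-fold), DCT at 4058 against 175.2 (23.04-fold), GPR143 at 198.3 against 15.8 (11.9-fold) and OCA2 at 46.3 against 3.34 (10.9-fold). SLC45A2 at 8.84 against 0.0101 CPM and MLANA at 6.35 against 0.0809 CPM rested on 7 RPE-like cells each. RPE-like cells held 95.8% of the TYR, 94.7% of the PMEL and 94.0% of the TYRP1 reads of day 90, but 81.4% of MITF, 79.8% of DCT, 70.3% of OCA2 and 68.2% of GPR143. This order is that of day 90, where RPE-like cells were many. At day 60 they held 31.9% of the PMEL and 30.99% of the TYRP1 reads, and on chip a 48.3% of the PMEL, 64.7% of the TYRP1 and 65.1% of the TYR reads.

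Over all 99 RPE-like cells, thinned detection was 98.0% for DCT, 97.0% for PMEL, 96.0% for TYRP1, 84.8% for both TYR and MITF, 62.6% for GPR143, 15.2% for OCA2, 5.05% for MLANA and 4.04% for SLC45A2. Per kilobase of exon, levels in these cells ran from PMEL at 795.2 CPM per kb through DCT at 511.6, TYRP1 at 310.3, TYR at 110.7, GPR143 at 96.9, MITF at 72.3 and OCA2 at 11.6 to MLANA at 3.70 and SLC45A2 at 2.16. The steps between TYR, GPR143 and MITF were small beside the spread between cells. At day 90 the lowest, median and highest RPE-like cell stood at 0, 209.6 and 1431 CPM for TYR and at 0, 138.9 and 1131 CPM for GPR143. PMEL was the most even, from 716.5 through 2990 to 7225 CPM, and DCT ran from 339.3 through 3866 to 15919 CPM. Across the 99 cells, log2(CPM + 1) of PMEL correlated with that of TYRP1 at r = 0.69, with DCT at 0.561, with TYR at 0.377 and with MITF at 0.288. Within the 78 cells of day 90 the same values were -0.00715, 0.226, -0.0048 and -0.109. The pooled correlations thus did not hold within day 90, where the amounts of these genes varied from cell to cell without following PMEL.

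**Figure D3:**
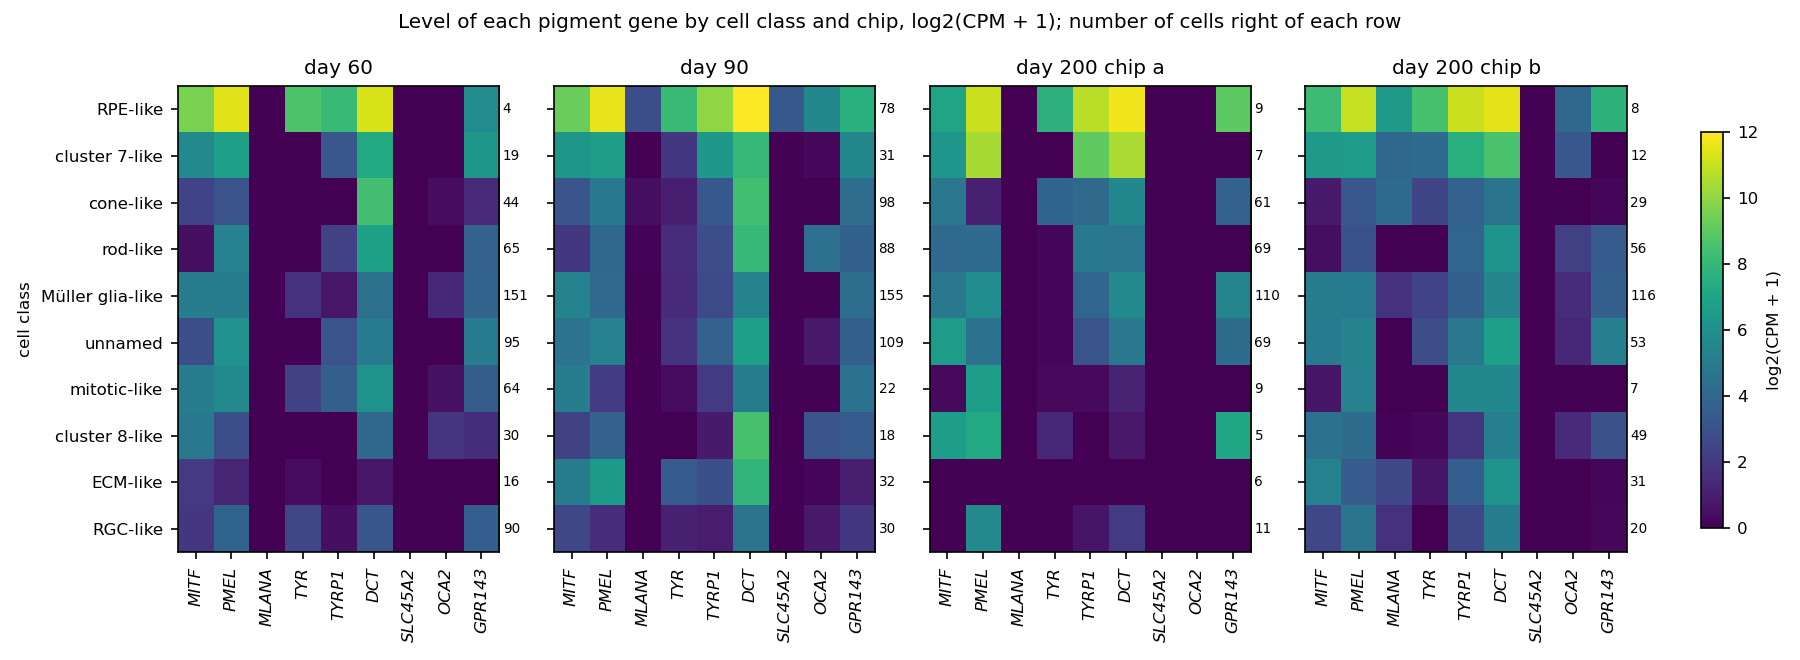
log2(CPM + 1) of each gene (columns) in each cell class (rows), 1 panel per chip, with the number of cells beside each row. The RPE-like row is the brightest for most genes on all chips, and DCT is also seen in cone-like and rod-like cells at days 60 and 90 and in some smaller classes.

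The balance between the genes in RPE-like cells differed between chips. Among the genes read in most of these cells, GPR143, TYRP1 and MITF spanned the widest fold ranges. TYRP1 stood at 267.6 CPM in the 4 cells of day 60, 1030 in the 78 of day 90, 1711 in the 9 of chip a and 2126 in the 8 of chip b. PMEL stood at 2740, 3131, 2080 and 1952 CPM in the same order. Hence there were 0.0977 TYRP1 reads per PMEL read at day 60, 0.329 at day 90, 0.823 for chip a and 1.09 for chip b. Leaving out any 1 cell gave 0.0663 to 0.157, 0.320 to 0.335, 0.694 to 1.14 and 0.912 to 1.31. The 4 day 60 cells held 146.3 to 471.0 CPM of TYRP1, against 776.8 to 3067 CPM in the 9 cells of chip a, with no overlap. On chip b, 3 of the 8 cells had no TYRP1 read and 1 stood at 14.3 CPM, below each day 60 cell, and the other 4 stood at 2610 to 5679 CPM. The 78 cells of day 90 ran from 0 through 977.6 to 3001 CPM and spanned the cells of day 60 and most of those of chip a.

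MITF was lower at day 200 in these cells, at 766.4 CPM at day 60, 606.6 at day 90, 128.5 for chip a and 293.9 for chip b. All 4 RPE-like cells of day 60 and 75 of 78 of day 90 had a MITF read, against 4 of 9 for chip a and 4 of 8 for chip b. The median cell stood at 808.2, 541.6, 0 and 94.8 CPM, with single cells at day 200 reaching 908.6 and 1026 CPM. Most of the day 200 reads came from 1 cell on each chip, and without it the level was 49.2 and 149.7 CPM. The 3 called doublets of chip a had no MITF read, and without them MITF reads per DCT read there were 0.0637 in place of 0.0373. TYR and DCT showed no such order. TYR stood at 404.5, 287.3, 206.8 and 358.1 CPM, and DCT at 2439, 4058, 3442 and 2896 CPM. GPR143 stood at 54.7, 198.3, 509.8 and 218.0 CPM, and on chip a 4 of 9 cells carried all of it. Of its 1198 reads in those cells, 360 and 350 were in cells called doublets, so its high level there rests in large part on them.

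The day 200 class was uneven. On chip b, 3 of the 8 RPE-like cells had no read of PMEL, TYRP1 or TYR and held 245.2 to 843.4 CPM of the 9 genes together, while the 4 highest cells held 6640 to 21132 CPM. On chip a the 9 cells held 3460 to 17515 CPM, and 5 of them had a TYR read. Values for day 200 therefore rest on few cells, and on chip a 3 of these were called doublets. With the called doublets removed, TYRP1 reads per PMEL read on chip a were 1.25.

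**Figure D4:**
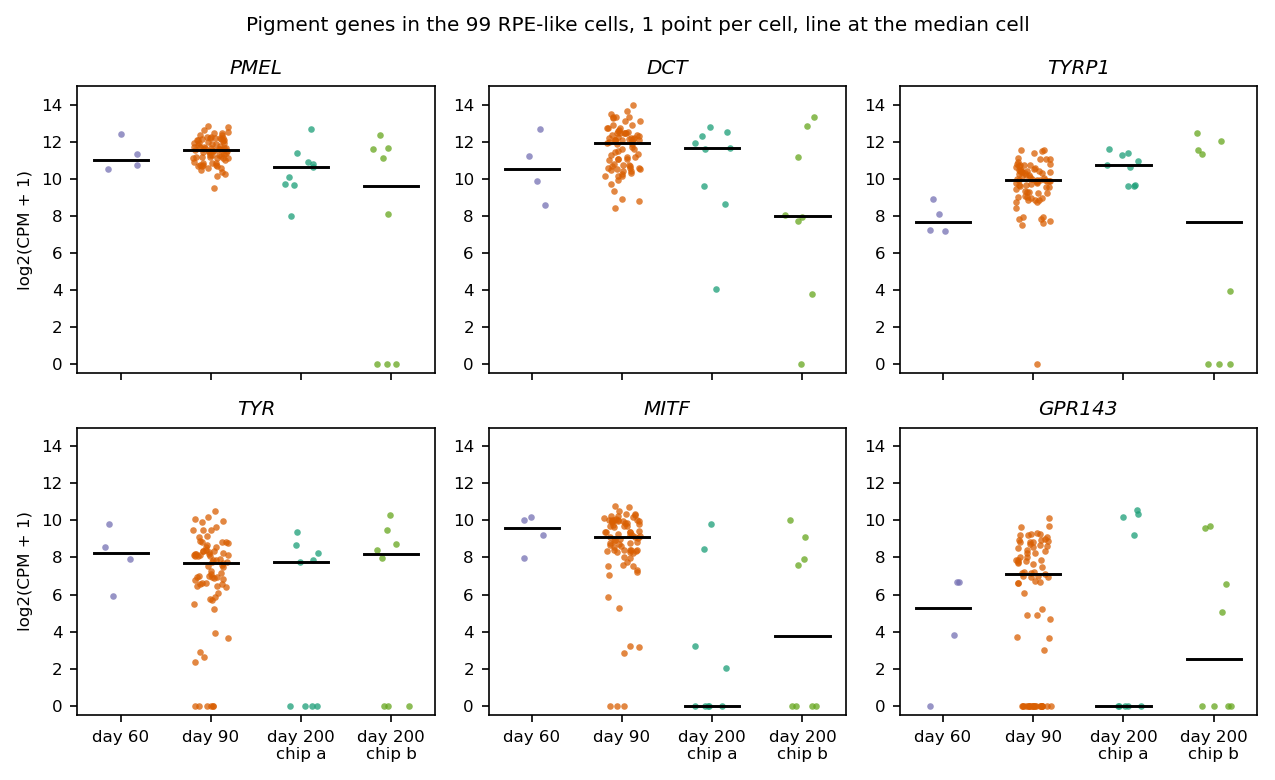
log2(CPM + 1) of 6 of the genes in each RPE-like cell (points) by chip, with a line at the median of the values as plotted. The TYRP1 points of day 60 lie below those of chip a, and the MITF median of chip a lies at 0.

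DCT was the gene with the most RNA outside the RPE-like class. At days 60 and 90 the cone-like cells held the most of it among the named classes, and at day 200 cluster 7-like or Müller glia-like cells held more than cone-like or rod-like cells. At day 60, 28 of 44 cone-like cells had a DCT read after thinning (63.6%, 47.8 to 77.6), at 341.5 CPM, and these cells held 35.9% of all DCT reads of that chip. At day 90, 50 of 97 cone-like cells (51.5%, 41.2 to 61.8) and 49 of 88 rod-like cells (55.7%, 44.7 to 66.3) had one, at 328.1 and 263.1 CPM. The share was alike in unnamed cells of day 90, with 53 of 107 (49.5%, 39.7 to 59.4), at a lower 108.3 CPM. It was 35.7% in Müller glia-like and 36.4% in mitotic-like cells of that day, at 40.2 and 31.8 CPM. On chip a the shares were 21.3% of cone-like and 11.6% of rod-like cells, and on chip b 17.2% and 30.4%, at 23.6 to 72.7 CPM. RGC-like cells, given for comparison, had a DCT read in 14.4% of cells at day 60 (7.92 to 23.4) at 8.21 CPM, in 30.0% at day 90 (14.7 to 49.4) at 23.4 CPM, in 18.2% for chip a and in 7 of 20 cells for chip b. Some smaller classes reached like DCT levels through 1 cell. At day 90, 18 cluster 8-like cells stood at 366.6 CPM and 32 ECM-like cells at 240.6 CPM, and at 81.9 and 31.3 CPM without their highest cell, against 291.7 for cone-like and 223.8 for rod-like cells treated alike. The 31 cluster 7-like cells stood at 255.2 CPM and at 185.4 without it, and at day 60 the 19 of that class (157.6 CPM) stood above rod-like cells. The median depth was 198356.5 reads in cone-like and 144957.5 in RGC-like cells at day 60. Cone-like cells of day 60 stood clear of the RGC-like share. At day 90 the intervals of the cone-like and RGC-like shares overlapped while the DCT levels did not (328.1 and 263.1 against 23.4 CPM), and rod-like cells of day 60 (18.5% at 114.6 CPM) overlapped the RGC-like share. At day 200 the rod-like share of chip a and the cone-like and rod-like shares of chip b were below the RGC-like share, which rests on 11 and 20 cells (intervals 2.28 to 51.8% and 15.4 to 59.2%), while RGC-like cells stood at 3.12 and 32.7 CPM. Shares and levels did not go the same way, and no order is read from them.

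At day 60 the other pigment genes were low in the cone-like cells with DCT. Cone-like cells of day 60 held 7.28 CPM of PMEL, 4.32 of MITF, and no read of TYRP1 or TYR. They had 46.9 DCT reads per PMEL read, against 0.890 in the RPE-like cells of that chip. The ratio was 11.8 in cone-like and 17.2 in rod-like cells of day 90, against 1.30 in RPE-like cells. In rod-like cells of day 60 it was 2.96. At day 90 about as many cone-like and rod-like cells with a DCT read had another of the 9 genes as had DCT alone. DCT was alone in 24 of the 50 cone-like and in 24 of the 49 rod-like cells, and 20 and 22 of them had a PMEL read. Of the 180 cells with at least 100 DCT reads, 50 had no other pigment gene at 5 reads or more, and 26 of these were cone-like and 14 rod-like. Of 44 cone-like cells above 300 CPM of DCT on any chip, 41 stayed below 30 CPM of PMEL, as did 26 of 29 rod-like and 0 of 93 RPE-like cells. This was not particular to cone-like and rod-like cells. It held for 15 of 19 Müller glia-like, 11 of 18 unnamed and 5 of 11 cluster 7-like cells. In the smaller groups it held for 4 of 6 ECM-like, 3 of 4 cluster 8-like, 2 of 2 RGC-like and 1 of 2 mitotic-like cells. Single cone-like cells reached 1902 CPM of DCT at day 60 and 3731 CPM at day 90, above the lowest RPE-like cell of day 90 (339.3 CPM).

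Cells of a chip column were processed together, so the split of columns by the presence of an RPE-like cell is given beside these values. At day 60, DCT was read in 22 of 35 cone-like cells (62.9%) at 356.6 CPM in the 15 columns without an RPE-like cell, and in 6 of 9 (66.7%) at 271.4 CPM in the 4 columns with one. The 9 cells are few, and the columns of a chip came from the same cell suspension, so the source of this DCT was not tested. Over all cells outside the RPE-like class, shares with a PMEL, DCT or TYRP1 read, without thinning, were higher in columns with an RPE-like cell. This was seen at day 60 and on both chips of day 200. It did not hold for every gene. On chip b, GPR143 was read in 4.35% of other cells in columns with an RPE-like cell and in 7.75% elsewhere. A PMEL read was present in 28% of other cells in columns with an RPE-like cell and in 16.9% in columns without one at day 60, in 31.7% and 11.2% on chip a, and in 20.9% and 16.7% on chip b. DCT reads were present in 23.2% and 21.6% of such cells at day 60, in 37.4% and 16.5% on chip a and in 42.6% and 30.2% on chip b. With at least 5 reads the PMEL shares were 5.69% and 5.36% on chip a, 10.4% and 9.69% on the other chip of day 200, and 15.2% and 9.58% at day 60. The PMEL level of these cells was lower in columns with an RPE-like cell at day 200, at 33.4 against 67.1 CPM on chip a and at 20.8 against 27.9 CPM on chip b. At day 60 it was higher in such columns, at 45.1 against 34.8 CPM. On chip a, 1 cell held 34.3% of the PMEL reads outside the RPE-like class. Without it the level over all columns was 36.5 in place of 55.5 CPM. The chip a column with the highest pigment level in these cells, 937.7 CPM, had no RPE-like cell. The split by columns was not computed without that top cell, so no direction is read from chip a. TYRP1 reads were present in 34.96% and 13.8% for chip a and in 28.7% and 17.4% for chip b. At day 90, 19 of 20 columns had an RPE-like cell, and over the 20 columns the PMEL share of other cells went with the RPE-like pigment reads of the column at r = 0.836 and rho = 0.808, DCT at 0.768 and 0.729, and TYRP1 at 0.605 and 0.469. The part of the column in the low values outside RPE-like cells was not tested.

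**Figure D5:**
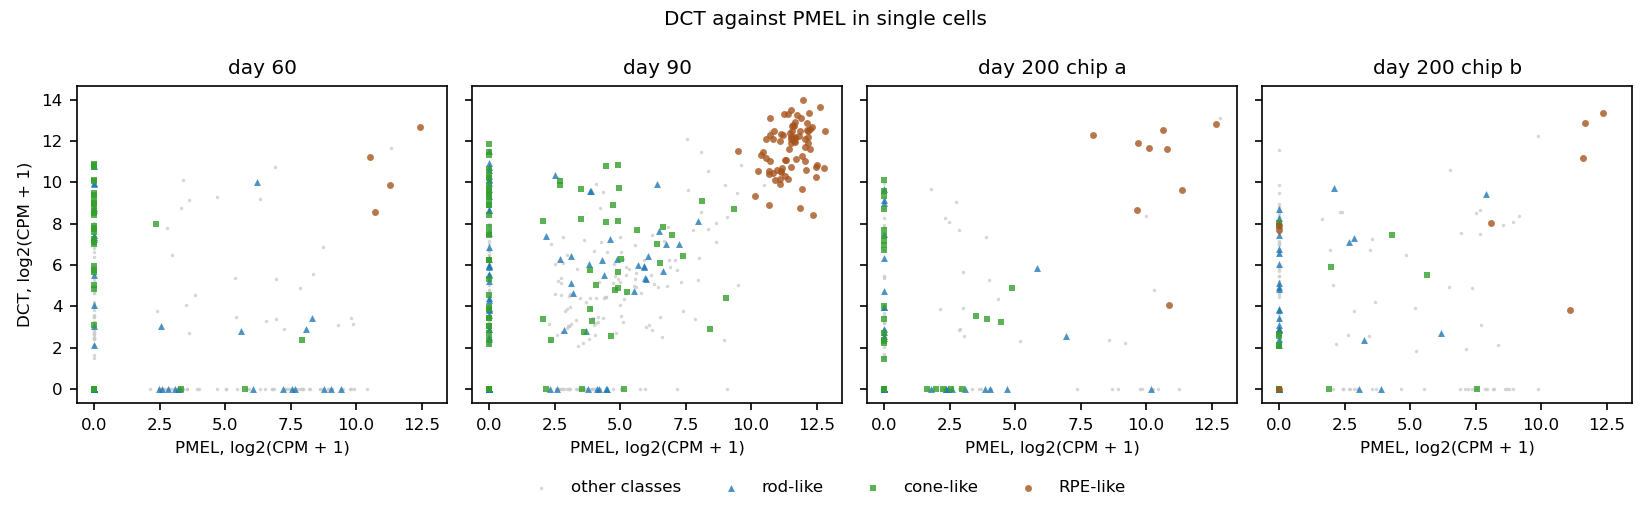
DCT against PMEL, both as log2(CPM + 1), with 1 point per cell, in 1 panel per chip. RPE-like cells (brown circles) sit high on both axes at day 90, while cone-like cells (green squares) and rod-like cells (blue triangles) form a column of points with DCT and with 0 PMEL at days 60 and 90.

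MITF and GPR143 also had much of their RNA outside the RPE-like class, and in scattered cells. Outside it lay 77.8% of MITF reads at day 60, 18.6% at day 90, 92.1% for chip a and 82.4% for chip b. On chip a, 44.3% of MITF reads were in unnamed cells, where 1 cell held 448 reads, and without it the level of that class was 70.6 in place of 95.6 CPM. Of 84 cells with at least 100 MITF reads, 22 had no other pigment gene at 5 reads or more. Among these, 9 were Müller glia-like and 7 unnamed, and 13 of them were on chip a. For GPR143 the count was 14 of its 35 cells with at least 100 reads that were without another pigment gene, 7 of them Müller glia-like. For comparison this held for 13 of 127 such cells of PMEL, 5 of 88 of TYRP1 and 0 of 20 of TYR.

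Outside the RPE-like class other pigment genes were read more often in cells with a MITF read, in counts that share depth and columns. Of 216 such cells with a MITF read, 32.4% had a PMEL read, 39.8% DCT and 22.7% TYRP1, against 14.1%, 25.1% and 8.04% of the 1655 cells without one. For PMEL the shares by chip were 22.4% against 13.1% at day 60, 48.9% against 20.7% at day 90, 14.3% against 8.78% for chip a and 20% against 11.3% for chip b. In RPE-like cells of day 90 with a MITF read, 91.9% had an OTX2 read, as did 3 of the 4 without one. In the other cells of day 90 the OTX2 share was 63.8% both with and without a MITF read.

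Some single cells decided a class level. On chip a, 7 cells named after a published cluster led by AOC2 and CPAMD8 stood at 1365 CPM of PMEL and 1443 of DCT. In that class 1 cell, not called a doublet, held 1796 PMEL, 2143 DCT and 622 TYRP1 reads, and without it the levels were 244.1 and 71.4 CPM. TYR in cone-like cells of chip a (13.7 CPM) came to 96.8% from 1 cell with 239 reads. Of the OCA2 reads of day 90, 25.2% were in rod-like cells and nearly all of those in a pair of cells, the higher with 139 reads. Of the 8 SLC45A2 cells, 7 were RPE-like.

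The genes whose levels ran most like the sum of the 9, by Pearson correlation of log2(CPM + 1) over all cells of the 4 chips among 18700 genes with a read in at least 20 cells, were NCCRP1 (0.461), GPNMB (0.442), GNGT1 (0.441), COL8A1 (0.439), TFPI2 (0.438), TRPM1 (0.435), ELN (0.424), ENPP2 (0.411), BEST1 (0.410) and PRSS33 (0.390). GPNMB is a melanosomal relative of PMEL, TRPM1 a cation channel also found in melanocytes, and BEST1 a chloride channel of the RPE. COL8A1, ENPP2 and BEST1 were among the markers that named the RPE-like class. Single genes gave the same names in part. TYR was most like NCCRP1 (0.683) and TRPM1 (0.646), TYRP1 like TRPM1 (0.644) and NCCRP1 (0.633), PMEL like NCCRP1 (0.593) and TRPM1 (0.587), and DCT like NCCRP1 at 0.506. MITF reached 0.469 with TRPM1 and GPR143 0.410 with NCCRP1. For OCA2, MLANA and SLC45A2 the highest values were 0.241, 0.191 and 0.265, and weak correlations of sparse counts are no finding. TRPM1 stood at 260.5 CPM in RPE-like and 4.55 in other cells, and NCCRP1 at 598.6 and 6.00 CPM.

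The other genes of the pathway were counted in the same way. Counts are of genes at least 2-fold higher or lower in RPE-like than in other cells of day 90. They are to be read against the 13.3% given above for higher genes and against 19.9% of the same genes that were lower. Among melanosome channels and enzymes, 7 of the 11 that passed the filter were higher, with a median difference of 1.58 log2 units against -0.173 over all genes. They included TRPM1 (66.1-fold), GPNMB (20.6-fold), BACE2, a protease that trims PMEL (4.94-fold), SLC24A5, a melanosomal ion exchanger (4.13-fold), and CD63, a sorting partner of PMEL (2.73-fold), and 2 were lower. Of 22 genes of the sorting complexes 3 were higher and 2 lower, a share of higher genes near that of all genes. The small GTPases RAB38 (14.1-fold) and RAB32 (2.66-fold), which bring enzymes to melanosomes, and APOE (6.24-fold) were the higher ones, and the median was 0.068. In melanosome movement 3 of 7 were higher, RAB27A (16.4-fold), MYRIP (10.9-fold) and MYO7A (10.2-fold), the parts of a known RPE transport complex, and none was lower.

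Of 12 genes of the MITF family and its control that passed, 2 were higher, a share near that of all genes, and 2 were lower. TFEC (3.07-fold) and TFEB (2.39-fold) were the higher ones. RAX, a factor of the early eye field, was among the lower ones, at 0.283 of the level in other cells. OTX2, which acts with MITF in the RPE, stood at 1.01-fold and is also a gene of photoreceptors. Among RPE genes without a role in melanin 24 of 25 were higher, with RLBP1 at 30.8-fold and TTR at 20.5-fold, but this list shares 7 genes with the markers that named the class. RPE65, the visual cycle isomerase of mature RPE, was low, with reads in 14.1% of RPE-like cells at 12.5 CPM. Of the melanocyte and neural crest list, 4 genes passed, none was higher, and TFAP2A was lower. PAX3 and MIA had no read in any of the 99 RPE-like cells, and KIT had a read in 4 of them. SOX10, the defining melanocyte factor, was on the melanocyte and neural crest list, and no value is given for it here. Of the 12 genes on that list, 9 were in the count table.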

How the data were processed

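Retinal organoid cells of 79 chip columns were analysed as 4 chips. The authors trimmed reads with Trimmomatic 0.33, aligned them with STAR 2.4.0 to GRCh38.p7 and counted them per gene with HTSeq 0.6 (submitters' processing notes), and they deposited raw read counts per gene and cell after filtering cells and genes. No strand setting was given in the sources used here, so reads of overlapping genes on opposite strands cannot be told apart. The deposited spike-in row (at most 0.0165% of reads) was left out, and it does not show the spike-in load that the study describes. The study added more concentrated spike-in RNA at day 90 than at the other days and set a looser spike-in limit there. It set a lower read minimum at day 60. These differences go with day and cannot be told apart from it. The columns' day and chip came from the labels.

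Reads were summed and given as CPM with exact intervals. Detection was thinned to 50000 reads per cell (seed 1). Cells were clustered with Seurat 5.3.0 in R 4.3.3 (1000 variable genes per day without the 9 genes, canonical correlation, 20 dimensions, resolution 0.6), and a cluster was named where at least 3 markers of 1 of 9 lists were 2-fold higher after an offset of 5 CPM and were read in at least 20% of its cells. Doublets were called with scrublet in scanpy 1.11.5 (1, 2, 24 and 1 cells) and kept, and their removal was an alternative. This caller marks few cells on 3 chips, so doublets may remain there. Since days 60 and 90 had 1 chip each, and cells or columns are not replicates, no test was run. The level difference code was tested on simulated data. Named genes were the 9 genes, the 10 genes most like their sum and the 3 most like each, and list genes past 2-fold in RPE-like cells. OTX2, RPE65, PAX3, MIA and KIT, and cells described singly, were chosen after their values were seen. The members and lists were chosen with earlier results of these data known. Some members of these lists are not reported here. Alternatives covered thinning, read minimum, doublets, pseudocount, filter, chips and clustering, and the DCT read minimum was added after seeing the data.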

Additional observations from a re-analysis of the deposited data

How the results depend on the processing

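No paired analysis was possible because no test was run between groups. No difference of at least 2-fold changed direction under the alternatives tried, but some smaller ones did. From day 60 to day 200, GPR143 differed by 0.586 log2 units with both chips and by -0.0989 for chip b alone. Differences of OCA2 and MLANA that were below the filter also changed sign with single chips. The share of cells with several pigment genes depended most on the settings, and day 90 stayed the highest chip under each of them. With 2 genes in place of 3 it was 9.17%, 38.6%, 11.2% and 18.1% for day 60, day 90, chip a and chip b, and with 4 genes it was 1.21%, 17.9%, 2.25% and 2.62%. Without thinning it was 34.5% at day 90, 11.0% for chip a and 11.5% for chip b, and day 90 stood at 20.5% with thinning to 25000 reads and at 17.5% with at least 5 reads without thinning. A minimum of 5 reads after thinning, chosen after seeing the data, lowered the share of cells with DCT to 47.7% of cone-like cells at day 60 and to 37.1% of cone-like and 34.1% of rod-like cells at day 90. The count of genes at least 2-fold higher at day 200 than at day 60 was 2 without chip b, where GPR143 joined TYRP1 at 2.02-fold, and 2 with no filter, where MLANA (3.16-fold on the CPM + 1 scale, from 0) joined. TYRP1 reads per PMEL read on chip a were 0.663 with 10 dimensions and 1.25 with called doublets removed. With a pseudocount of 10 CPM the background shares were 4.04%, 1.08% and 4.91% for the steps from day 60 to 90, from day 90 to 200 (lower) and from day 60 to 200, and the second was 8.85% without chip b and 9.15% with no filter. The RPE-like class shared 95 to 99 of its 99 cells with each other clustering, and all 96 with doublets removed, and MLANA reads in RPE-like cells at day 90 went to 36.5% with 10 dimensions. Of the remaining values for single genes and backgrounds, 274 stayed within their interval or 1.5 times the value given and 42 moved, nearly all of these lower shares of cells under 5 reads or 25000 reads and smaller differences under the larger pseudocount. MLANA, SLC45A2 and OCA2 rested on 17, 8 and 50 cells, which limits what their values can show.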
